A study of Mus musculus with 8 samples.

Results

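The aminoacyl tRNA synthetase genes are 35 of the 23284 genes in the deposited expression table, taken by symbol: 20 cytosolic synthetases, whose symbols carry no suffix, and 15 mitochondrial ones, whose symbols end in 2. They were followed in P19, a mouse embryonal carcinoma line grown in culture, in cells given an siRNA against Upf3a and in cells given a control siRNA. In both arms transcription was blocked with actinomycin D from 24 h after transfection, and RNA was collected at 0, 15, 105 and 225 min of the block, which makes 8 conditions. The labels name 2 cultures for each condition and the table holds 1 value per gene and condition, so the 4 times are the only repeat of each arm and p-values measure the spread between times, not between cultures. Levels are FPKM, that is fragments scaled to transcript length and to the size of each library, so they can be set side by side between genes, and the read depth is unknown.

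Aminoacyl tRNA synthetases join each amino acid to its matching tRNAs and so feed the ribosome. Mammalian cells hold a cytosolic set and a mitochondrial set, both encoded in the nucleus, and the mitochondrial enzymes serve the small set of proteins made inside the organelle. Several cytosolic enzymes travel together in the multi-synthetase complex, and many of their genes are targets of Atf4, the transcription factor of the amino acid response. The Upf3a protein belongs to nonsense-mediated decay, which clears mRNAs carrying premature stop codons, and the study asked how losing it alters transcript stability.

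FPKM totals ran from 537350 to 923333 over the conditions, and the synthetases together made up 0.370% to 0.444% of the total in each. Each of the 35 had an OK status in every condition and a mean FPKM of 1 or more, the minimum for testing, and 31 had a mean of 5 or more. Upf3a averaged 4.68 ± 0.47 FPKM with Upf3a siRNA and 14.1 ± 0.60 FPKM with control siRNA (SD, n = 4 times), a mean log2 difference of -1.42 (exact sign-flip test, two-sided, p = 0.125, the smallest that 4 pairs allow). Its paralog Upf3b averaged 10.7 ± 2.4 FPKM with Upf3a siRNA and 13.5 ± 3.3 FPKM with control siRNA, a mean log2 difference of -0.30 (exact sign-flip test, p = 0.125). Markers of the line itself were present: 7 of 8 embryonal carcinoma markers were called higher with Upf3a siRNA, and their summed FPKM was 2550 to 4275 with Upf3a siRNA and 2075 to 3438 with control siRNA. Of the neuron markers, 3 of the 4 tested were called lower: Stmn2, Tubb3 and Elavl3. The list summed to 101 to 155 FPKM with Upf3a siRNA and 117 to 184 FPKM with control siRNA. Stmn2 averaged 67.1 FPKM with Upf3a siRNA and 77.9 FPKM with control siRNA, and Tubb3 46.2 and 52.8 FPKM. Elavl3 was less abundant in both arms (4.85 and 9.21 FPKM). Map2, which was not called, had 2.00 and 2.02 FPKM, and Neurog1 stayed near 0. Fibroblast markers summed to 8.15 to 11.8 FPKM with Upf3a siRNA and 9.30 to 14.5 FPKM with control siRNA, with 1 of 3 tested called lower. Haematopoietic markers summed to 1.55 to 3.72 FPKM with Upf3a siRNA and 2.33 to 2.55 FPKM with control siRNA. Cd68 averaged 2.75 FPKM with Upf3a siRNA and 2.31 FPKM with control siRNA, and Ptprc was near 0. These marker counts stand beside 26.1% of all tested genes called higher and 22.3% called lower. The part of these marker differences in the synthetase values was not tested. In bulk RNA, fewer cells of a type and less RNA per cell cannot be told apart.

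The cytosolic mRNAs were the more abundant set. Averaged over the 8 conditions, they ran from 44.6 FPKM for Cars, which charges cysteine tRNA, to 345 FPKM for Kars, the lysyl enzyme, with a median of 96.5. Apart from Lars2, the mitochondrial mRNAs ran from 2.31 FPKM for Wars2 to 36.9 FPKM for Yars2, with a median of 11.0. In 12 pairs the cytosolic and mitochondrial symbols differed only by the suffix 2, and the mitochondrial mRNA had the lower mean level in 11 of these pairs. Other mitochondrial genes share an amino acid with a cytosolic gene of another symbol. Pars2 and Ears2 averaged 2.89 and 12.0 FPKM beside 95.4 for Eprs, the cytosolic prolyl and glutamyl enzyme. Fars2 averaged 5.19 FPKM beside 89.4 and 71.2 for Farsa and Farsb, the subunits of the cytosolic phenylalanyl enzyme. The cytosolic level was 41.4 times the mitochondrial one for the asparaginyl pair Nars and Nars2, and 1.28 times for the tyrosyl pair Yars and Yars2. The leucyl pair was the exception: Lars had 0.334 times the level of Lars2. The Lars2 value stayed between 0.137 and 0.191 of that of Rn45s, the ribosomal RNA precursor gene, in all 8 conditions. The part of ribosomal RNA reads in the Lars2 value was not tested, so this exception may not be one of mRNA level. Kars and Gars have no separate mitochondrial gene, since each encodes both forms of its enzyme.

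The first comparison asked which synthetase mRNAs differed in level between the arms over the 4 times. With Upf3a siRNA, 9 of the 35 were called higher and 2 lower, and 24 were not called. The call is limma on log2(FPKM + 1) with time as a factor and a Benjamini-Hochberg adjusted p below 0.05 over the 11452 tested genes. A log2 difference is with Upf3a siRNA minus with control siRNA on that scale, which understates the change of mRNAs of low level. The share of synthetases called higher, 25.7%, was near the background of 26.1% of tested genes, and the share called lower was 5.71% against a background of 22.3%. In all 31.4% of synthetases and 48.4% of tested genes were called. Their median log2 difference was 0.06, beside 0.0046 over all tested genes. The split depended on scaling: 17 were called higher and 0 lower when values were scaled to ribosomal protein genes, and 8 higher and 7 lower after quantile normalization.

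Higher mRNAs occurred in both compartments. Of the 20 cytosolic genes, Vars, Wars, Yars, Lars and Mars were called higher and none was called lower, while their fitted differences were positive for 10 and negative for 10. After quantile normalization 5 cytosolic genes were called lower. Of the 15 mitochondrial genes, Tars2, Aars2, Pars2 and Hars2 were called higher and Mars2 and Nars2 lower, with 12 positive and 3 negative fitted differences.

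**Figure D1:**
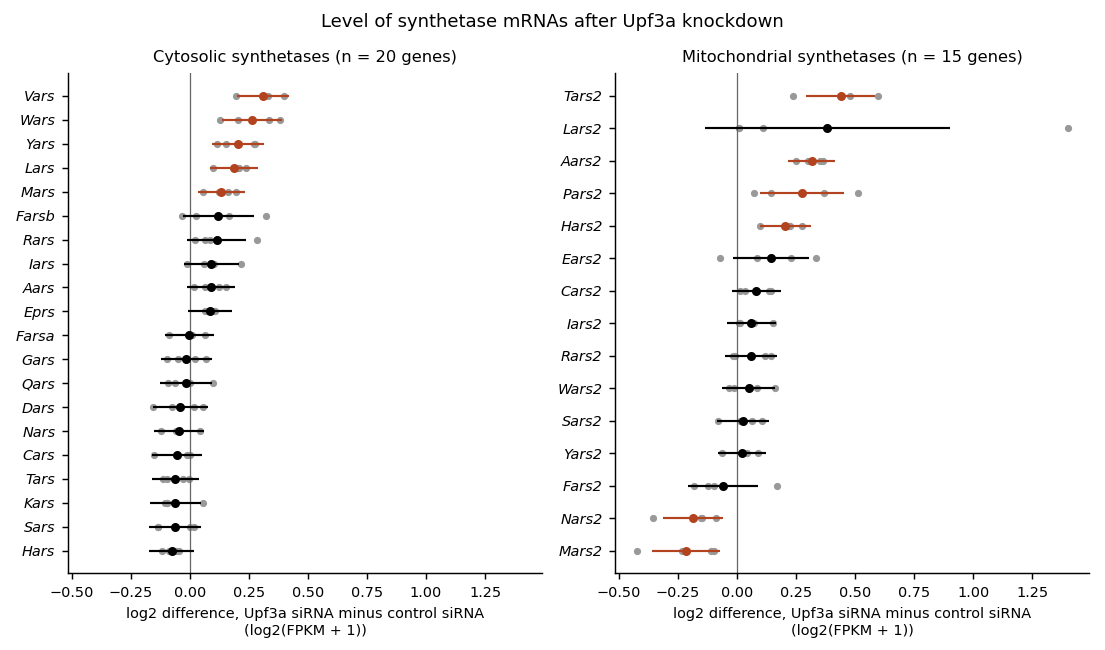
Log2 difference in level, Upf3a siRNA minus control siRNA on log2(FPKM + 1), for the 20 cytosolic genes (left) and the 15 mitochondrial genes (right). Grey points are the 4 times, the larger point is the limma estimate with its 95% interval, and orange marks an adjusted p below 0.05; Tars2 has the largest called difference, 0.44, and Lars2 has 1 time far from the other 3.

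Tars2, which charges mitochondrial threonine tRNA, had the largest called difference. The gene lies on chromosome 3 at 95739976 to 95760206 (minus strand, GRCm38). At 0, 15, 105 and 225 min it had 21.7, 23.0, 24.7 and 29.5 FPKM with Upf3a siRNA, against 18.2, 16.2, 17.98 and 19.1 FPKM with control siRNA. Every value with Upf3a siRNA was above every value with control siRNA, so the arms did not overlap. The log2 difference was 0.44 ± 0.06 (SE; limma adjusted p = 0.0012), 1.35-fold, with the gap at 225 min the widest of the 4.

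Aars2, the mitochondrial alanyl enzyme, lies on chromosome 17 at 45506841 to 45520843 (plus strand). It had 9.08, 10.9, 13.2 and 14.3 FPKM with Upf3a siRNA at the 4 times, against 7.47, 8.32, 10.0 and 11.4 FPKM with control siRNA. Both arms climbed in FPKM over the block, and the Upf3a siRNA value was the higher one at each time, by 0.25 to 0.36 on the log2 scale. The log2 difference was 0.32 ± 0.04 (SE; limma adjusted p = 9.7e-04).

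Vars encodes the cytosolic valyl enzyme on the same chromosome, at 35000987 to 35016322 (plus strand). It had 113, 127, 172 and 208 FPKM with Upf3a siRNA, against 98.7, 101, 130 and 167 FPKM with control siRNA, and was called higher by 0.31 ± 0.05 (log2, SE; limma adjusted p = 0.0018). Wars, the cytosolic tryptophanyl enzyme, had 59.2, 58.3, 77.8 and 109 FPKM with Upf3a siRNA, against 54.1, 45.9, 67.3 and 83.7 FPKM with control siRNA. For both genes the Upf3a siRNA arm was the higher at each time, while the ranges over time overlapped because both arms climbed. Wars differed by 0.26 ± 0.05 (log2, SE; limma adjusted p = 0.0061). Yars, the cytosolic tyrosyl enzyme, had 46.8, 44.9, 51.0 and 59.9 FPKM with Upf3a siRNA, against 43.2, 37.0, 45.8 and 49.2 FPKM with control siRNA. Its difference, 0.20 ± 0.05 (log2, SE; limma adjusted p = 0.010), was again present at all 4 times, but without the 15 min values it lost the call (limma adjusted p = 0.05001).

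Pars2 and Hars2, the mitochondrial prolyl and histidyl enzymes, were higher in the Upf3a siRNA arm from a low level that shrank over the block in both arms. Pars2 had 5.96, 5.19, 1.40 and 0.898 FPKM with Upf3a siRNA, against 3.88, 3.80, 1.17 and 0.807 FPKM with control siRNA. The gap was widest at 0 min and nearly closed at 225 min, and the log2 difference was 0.27 ± 0.08 (SE; limma adjusted p = 0.021). The Pars2 call was lost when either the 0 or the 15 min values were left out (adjusted p = 0.072 and 0.074), with no filter on low values (0.073), and with a pseudocount of 5 (0.051), where the log2 difference was 0.15. Hars2 had 6.82, 6.59, 3.25 and 2.53 FPKM with Upf3a siRNA, against 5.46, 5.51, 2.98 and 2.03 FPKM with control siRNA. It was the higher in the Upf3a siRNA arm at each time, by 0.20 ± 0.05 (log2, SE; limma adjusted p = 0.0093).

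Mars2, the mitochondrial methionyl enzyme, went the other way. It had 8.02, 6.53, 2.85 and 1.86 FPKM with Upf3a siRNA, against 8.65, 7.86, 3.15 and 2.83 FPKM with control siRNA. The Upf3a siRNA value was the lower one at each time, with the widest gap at 225 min, and the log2 difference was -0.22 ± 0.06 (SE; limma adjusted p = 0.024). Nars2, the mitochondrial asparaginyl enzyme, was the other mRNA called lower, with 2.39 to 3.29 FPKM with Upf3a siRNA and 3.17 to 3.76 FPKM with control siRNA and a log2 difference of -0.19 (limma adjusted p = 0.024). Neither lower call held without the 15 min or without the 225 min values (Mars2 adjusted p = 0.073 and 0.055, Nars2 0.057 and 0.055), nor with no filter on low values (0.066 and 0.052) or scaled to ribosomal protein genes (0.21 for both). The Nars2 call was also lost without the 0 min values (adjusted p = 0.057).

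The 2 remaining called genes were cytosolic members of the multi-synthetase complex. Lars, the leucyl enzyme, had a log2 difference of 0.19 (limma adjusted p = 0.010), and Mars, the methionyl enzyme, one of 0.13 (limma adjusted p = 0.037), which was lost without any of the 0, 15 or 105 min values (adjusted p 0.10 to 0.12). The Mars call was also lost with median-of-ratios scaling, quantile normalization and a pseudocount of 0.1 (limma adjusted p = 0.087, 0.32 and 0.051). They were 2 of the 8 listed members of the complex called higher, none of the 8 was called lower, and the median over the 8 was 0.09. By catalytic class, class I synthetases had 5 called higher and 1 lower of 17 with a median of 0.09, and class II synthetases had 4 higher and 1 lower of 17 with a median of -0.01. Over all tested genes 26.1% were called higher and 22.3% lower, so the shares called higher in the complex and in both classes were near the background. Eprs, which joins a class I glutamyl and a class II prolyl enzyme in 1 protein, stands in neither class count.

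**Figure D2:**
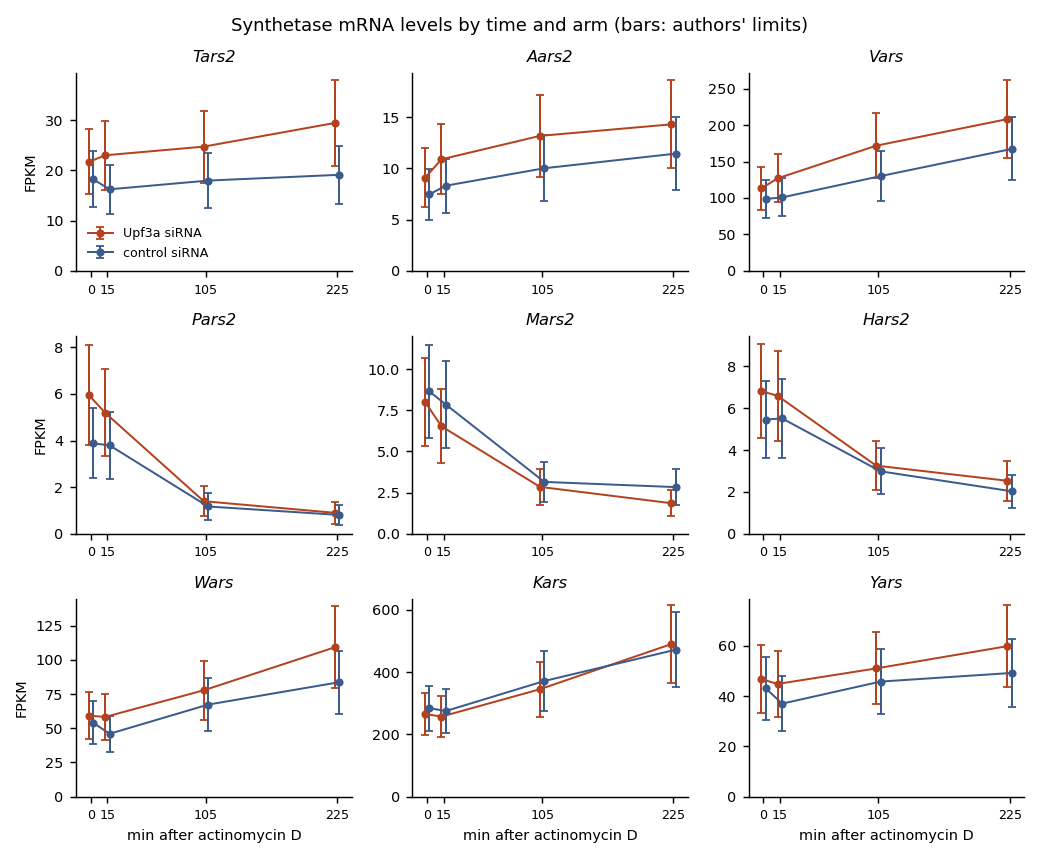
FPKM against min after actinomycin D for 9 synthetase mRNAs, with Upf3a siRNA in orange and control siRNA in blue; bars are the authors' confidence limits, whose level is not stated. Tars2 lies between 21.7 and 29.5 FPKM with Upf3a siRNA, above all 4 control siRNA values, while Pars2, Mars2 and Hars2 drop in both arms.

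The authors' limits around single values were wide, a median of 26.9% to 27.7% above the FPKM for the synthetases. They stood apart between the arms at 1 or more times for 1 of the 35, Lars2 at 15 min, against a background of 2.9% of tested genes. By sign, 15 of the 35 (42.9%) were higher with Upf3a siRNA at all 4 times, against a background of 31.8%. With the 5 that were lower at all 4 times, 57.1% kept 1 sign, against a background of 60.4%. The plot of values by time and arm shows overlapping limits at each time for the 9 mRNAs drawn.

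The 24 synthetases not called, Lars2 aside, had log2 differences from -0.08 for Hars, the cytosolic histidyl enzyme, to 0.14 for Ears2, the mitochondrial glutamyl enzyme. Among the cytosolic ones were Farsb at 0.12 and Rars at 0.11, then Iars and Aars at 0.09 each and Eprs at 0.09. Farsa, which encodes the other subunit of the enzyme that Farsb belongs to, stood at -0.0013. Gars and Qars were at -0.01 and -0.02, Dars at -0.04, Nars and Cars at -0.05, and Tars, Kars and Sars at -0.06 each. Among the mitochondrial ones Cars2 was at 0.08, Iars2 and Rars2 at 0.06, Wars2 at 0.05, Sars2 at 0.03, Yars2 at 0.02 and Fars2 at -0.06. A p above the threshold does not show equal levels: the 95% interval for Kars, the most abundant, was -0.17 to 0.05.

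Lars2, the mitochondrial leucyl enzyme, had a pattern of its own. It had 131, 349, 267 and 357 FPKM with Upf3a siRNA, against 131, 132, 247 and 355 FPKM with control siRNA. The arms were alike at 0, 105 and 225 min and far apart at 15 min, where the log2 difference was 1.40. The fitted difference of 0.38 ± 0.22 (SE) was not called (limma adjusted p = 0.19) and was 0.04 without the 15 min values (adjusted p = 0.59). Rn45s, the ribosomal RNA precursor gene, was looked at after the values were seen. It had 688, 2552, 1823 and 1989 FPKM with Upf3a siRNA, against 729, 793, 1576 and 1958 FPKM with control siRNA, so the same condition stood high at 15 min. The Lars2 value stayed between 0.137 and 0.191 of the Rn45s value in all 8 conditions, and among all tested genes Rn45s had the profile most like that of Lars2 by Pearson correlation over the conditions, which share their scaling. The part of ribosomal RNA reads in the Lars2 value was not tested, and no other synthetase level reached that of Lars2 except Kars.

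**Figure D3:**
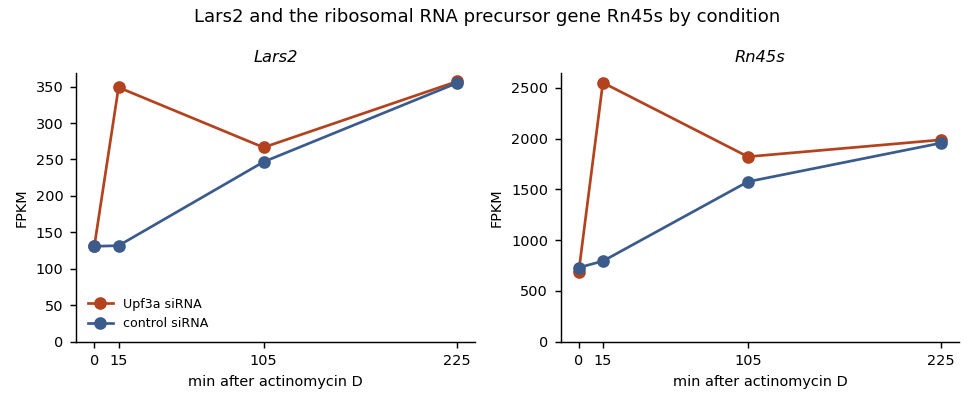
FPKM of Lars2 (left) and of the ribosomal RNA precursor gene Rn45s (right) against min after actinomycin D, with Upf3a siRNA in orange and control siRNA in blue, 1 value per condition. Both genes stand high at 15 min with Upf3a siRNA (349 and 2552 FPKM) and not with control siRNA (132 and 793 FPKM).

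The second comparison asked whether the block removed synthetase mRNAs at different rates in the 2 arms. None of the 35 was called, against a background of 0.00873%, which is 1 gene of those tested. The test is the arm-by-hours term in limma, with the same adjustment. A negative value means that FPKM fell faster, or rose more slowly, with Upf3a siRNA. At an unadjusted p below 0.05 there was 1 of 35, Pars2, or 2.86%, against a background of 6.65%. Adjusted p ran from 0.68 to 1.0 over the 35. This fit leaves 2 residual degrees of freedom, so only large differences could be called.

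Pars2 had the largest moderated t. Its FPKM at 225 min was 15.1% of that at 0 min with Upf3a siRNA and 20.8% with control siRNA, and the difference in slope was -0.11 ± 0.03 log2 units per hour (SE; limma adjusted p = 0.68). Rars, the cytosolic arginyl enzyme, came next with 99.1, 96.1, 108 and 132 FPKM with Upf3a siRNA, against 97.6, 92.0, 102 and 108 FPKM with control siRNA. The arms of Rars were close up to 105 min and apart at 225 min, and the difference in slope was 0.07 ± 0.03 log2 units per hour (SE; limma adjusted p = 0.75). Tars2 followed, with a difference of 0.07 ± 0.03 log2 units per hour (SE; limma adjusted p = 0.77), since its level climbed with Upf3a siRNA and changed little with control siRNA. The fitted differences were positive for 18 of 20 cytosolic genes and for 8 of 15 mitochondrial genes, with medians of 0.02 and 0.0027 log2 units per hour and 0.0033 over all tested genes. Of the 20 cytosolic differences 18 lay above that median, and 10 did so after quantile normalization or without the 225 min values. Over the 35, the share of the 0 min FPKM left at 225 min was larger with Upf3a siRNA in 27. This was not counted over all tested genes, so the 27 cannot be read as particular to synthetases. The FPKM total itself rose from 537437 to 923333 with Upf3a siRNA and from 562848 to 880304 with control siRNA. None of the single differences in slope passed the test, and genes in the same libraries are not separate repeats.

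The third comparison followed each mRNA over the block in both arms together. The slope is the change in log2(FPKM + 1) per hour, fitted by limma with arm as a term. A positive slope means that FPKM rose over the block. It does not show loss slower than that of the whole mRNA pool. From 0 to 225 min FPKM totals rose from 537437 to 923333 with Upf3a siRNA and from 562848 to 880304 with control siRNA. The synthetase share of the total fell over that span, from 0.415% to 0.381% with Upf3a siRNA and from 0.401% to 0.370% with control siRNA. FPKM carries no outside standard, so absolute half-lives cannot be read from it. All 35 synthetases had a called slope, against a background of 81.3%. It was positive for 27, or 77.1%, against a background of 42.7%, and negative for 8, or 22.9%, against a background of 38.6%. The slope was positive in both arms taken singly for 27, against a background of 49.6%.

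The cytosolic mRNAs formed 1 block and the mitochondrial ones spread wide. On the deposited scale all 20 cytosolic slopes were positive, from 0.06 for Cars to 0.23 for Kars, with a median of 0.15, beside 0.01 over all tested genes. FPKM at 225 min was 116% to 185% of that at 0 min for the cytosolic genes with Upf3a siRNA and 105% to 169% with control siRNA. Of the 15 mitochondrial slopes 7 were positive and 8 negative, with a median of -0.04. In the 12 pairs of cytosolic and mitochondrial genes matched by symbol, the mitochondrial slope was the lower in 8. Outside these pairs, Pars2 and Ears2 had slopes of -0.46 and -0.06 beside 0.17 for Eprs. Fars2 had -0.08 beside 0.13 for Farsa and 0.15 for Farsb. Scaling decides the sign: scaled to ribosomal protein genes, which moved the median slope of all genes to -0.23, 0 synthetases had a positive and 34 a negative called slope, though all 20 cytosolic slopes stayed above that median. After quantile normalization 12 were called positive and 7 negative, and 5 of the 20 cytosolic slopes lay above the median of all genes.

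**Figure D4:**
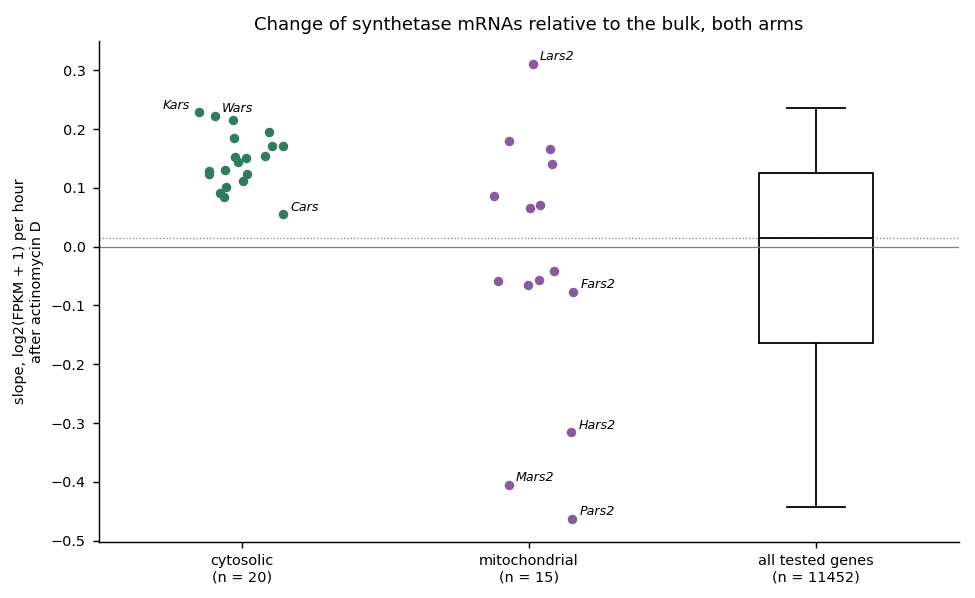
Slope of log2(FPKM + 1) per hour after actinomycin D, fitted over both arms, for the 20 cytosolic and 15 mitochondrial synthetase genes (1 point per gene) and as a box for the 11452 tested genes (median, quartiles, whiskers at the 5th and 95th percentiles). The dotted line is the median of all tested genes, 0.01; all 20 cytosolic points lie above it (5 of 20 after quantile normalization), and Pars2, Mars2 and Hars2 lie at -0.46, -0.40 and -0.32.

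The fastest losses were of mitochondrial synthetase mRNAs. Pars2 had a slope of -0.46 ± 0.06 (SE; limma adjusted p = 1.9e-04), Mars2 one of -0.40 ± 0.05 (limma adjusted p = 1.7e-04) and Hars2 one of -0.32 ± 0.03 log2 units per hour (limma adjusted p = 3.4e-05). The FPKM left at 225 min was 23.2% of that at 0 min for Mars2 with Upf3a siRNA and 32.8% with control siRNA, and 37.1% for Hars2 with Upf3a siRNA and 37.2% with control siRNA. These were the 3 of 35 for which the authors' limits at 225 min lay below those at 0 min in both arms, 8.57% against a background of 17.1%. Fars2, the mitochondrial phenylalanyl enzyme, was the fourth at -0.08 (limma adjusted p = 0.0099), so a wide gap separates the first 3 from the rest. Its FPKM was 5.23, 5.39, 4.85 and 4.69 with Upf3a siRNA and 5.68, 5.97, 5.65 and 4.06 with control siRNA, and without the 225 min values the slope of -0.04 was not called (adjusted p = 0.28), nor without the 15 min values (adjusted p = 0.055). The other negative slopes were those of Ears2, Nars2, Yars2 and Wars2, from -0.06 to -0.04.

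Gene structure was looked up for the 3 fastest. Mars2 has 1 annotated exon (chromosome 1, 55237177 to 55248470, plus strand) and Pars2 has 2 (chromosome 4, 106651069 to 106655282, plus strand). Hars2 has 13 exons. Among tested genes, the 881 with 1 or 2 exons had a median slope of -0.17 and 60.2% of them a called negative slope, and the 10457 with 3 or more exons had a median of 0.02 and 36.8%. Hars2 and Hars start head to head on chromosome 18 with 195 overlapping exon bases on opposite strands, and their slopes were -0.32 and 0.18. No source used here says whether reads were counted by strand, so reads in such overlaps cannot be assigned. On opposite strands, overlaps also involved Farsb with Sgpp2, Mars with Ddit3, Yars with C77080, Ears2 with Ubfd1, Fars2 with Lyrm4 and Iars2 with Rab3gap2. These spanned 30 to 2034 bases. Aars overlaps Exosc6 on the same strand, over 1326 of its 5750 transcript bases, which counting by strand would not separate.

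The highest slopes were those of Lars2, Kars, Wars and Vars. Lars2 had a slope of 0.31 ± 0.09 (SE; limma adjusted p = 0.011), which was 0.38 without the 15 min values, and it was not called without the 0 min or without the 225 min values (adjusted p = 0.088 and 0.096). It was the only one of the 35 whose limits at 225 min lay above those at 0 min in both arms, 2.86% against a background of 2.97%. At 225 min Lars2 was at 272% of its 0 min value with Upf3a siRNA and 271% with control siRNA, and Rn45s at 289% and 269%. The part of ribosomal RNA reads in the Lars2 value was not tested, so its slope cannot be read as that of the mRNA. Kars had 265, 257, 345 and 490 FPKM with Upf3a siRNA, against 284, 275, 371 and 472 FPKM with control siRNA, and a slope of 0.23 ± 0.02 (SE; limma adjusted p = 6.7e-06). Its arms crossed between 105 and 225 min. Wars and Vars both had slopes of 0.22 (limma adjusted p = 3.7e-05 and 1.3e-05), and they were also among the synthetases called higher with Upf3a siRNA. Scaled to ribosomal protein genes, the slopes of Kars, Wars and Vars were negative.

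Other genes of the same pathway gave mixed counts, which are to be read against the background of 26.1% of tested genes called higher and 22.3% called lower. Of 11 tested cofactors of synthetases, editing enzymes and peptidyl tRNA hydrolases, 3 were called higher with Upf3a siRNA and 2 lower, with a median of 0.03. Aarsd1, which hydrolyses serine wrongly joined to alanine tRNA, averaged 72.8 ± 17.7 FPKM with Upf3a siRNA and 53.5 ± 8.0 FPKM with control siRNA (SD, n = 4 times; log2 difference 0.42, limma adjusted p = 0.0015). Ptrhd1, listed in the table under 2410017P09Rik, had a log2 difference of 0.41 (adjusted p = 0.0016). Ptrh2, a peptidyl tRNA hydrolase, and Prorsd1, a prolyl tRNA editing homolog, were called lower, with log2 differences of -0.32 and -0.27 (limma adjusted p = 0.0022 and 0.0034), and their slopes over the block were -0.28 and -0.32 log2 units per hour.

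Of 8 genes of the mitochondrial amidotransferase route and mitochondrial elongation, 3 were called higher and none lower, with a median of 0.10. Tsfm and Tufm, the exchange factor and the elongation factor that brings charged tRNA to the mitochondrial ribosome, had log2 differences of 0.39 and 0.32 (limma adjusted p = 7.0e-04 and 0.0028). Gfm1, which moves the mitochondrial ribosome along, had one of 0.19 (adjusted p = 0.0082), and Gatc, a subunit of the amidotransferase that makes mitochondrial glutaminyl tRNA, one of 0.11 (adjusted p = 0.063), which was not called. Of 7 cytosolic elongation genes 2 were called higher and 1 lower, with a median of 0.03. They were Eef2k, the kinase of elongation factor 2, at 0.29, Eef1g at 0.16 and Eef2 itself at -0.13 (limma adjusted p = 0.0048, 0.039 and 0.044). Eif5a, which helps the ribosome past difficult stretches, was at 0.09 (adjusted p = 0.16).

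The amino acid response genes held calls in both directions. Of 12 synthetase genes known as Atf4 targets in mouse or human cells, 4 were called higher with Upf3a siRNA (Mars, Vars, Wars and Yars) and none lower, with a median of 0.09; the Mars call was lost under 6 alternatives. Of 26 other tested genes of the response, 4 were called higher and 11 lower, with a median of -0.07. The background was 26.1% called higher and 22.3% called lower. Sesn2, a leucine sensor of the mTOR pathway, and Atf5, a transcription factor, had log2 differences of 0.46 and 0.48 (limma adjusted p = 2.5e-04 and 7.3e-04). Mthfd2, of mitochondrial one-carbon metabolism, and Psph, which makes serine, had differences of -0.38 and -0.39 (limma adjusted p = 3.8e-04 and 0.0015). Atf4 itself, named after its value was seen, averaged 105 ± 29.4 FPKM with Upf3a siRNA and 87.0 ± 27.6 FPKM with control siRNA (SD, n = 4 times; log2 difference 0.28, limma adjusted p = 0.0024), and its slope over the block was -0.28.

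Promoters were searched for the letters TGATGNAA, the core of the C/EBP-ATF response element that Atf4 dimers bind, on both strands of the 300 bases from 250 before to 50 after each RefSeq start site (GRCm38.p6). Of the 26 synthetase genes with a RefSeq promoter here, 5 held it, or 19.2%, and 3.97% of all 32851 promoters did. The match nearest the start site of each gene is shown, because these place the letters beside each gene's start; each is read on the strand that holds the motif, 5′ to 3′, with the motif in capitals and 10 bases on each side.
Aars, chr8:111033841-111033868, minus strand: cagagcgctcTGATGAAAagtgacccgc
Gars, chr6:55037961-55037988, minus strand: gcccggtgcaTGATGAAAtagcgcagcc
Iars, chr13:49682127-49682154, minus strand: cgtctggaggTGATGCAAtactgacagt
Tars, chr15:11399656-11399683, plus strand: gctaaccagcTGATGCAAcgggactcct
Yars, chr4:129189896-129189923, plus strand: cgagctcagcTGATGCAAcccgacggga
In 3 of the 5 matches shown the N of the motif is C and in the others it is A, and they centre between -26 and 13 bases from the start site. Of these 5 genes, Yars was called higher with Upf3a siRNA, and Aars, Gars, Iars and Tars were not called, with log2 differences of 0.09, -0.01, 0.09 and -0.06. Of the other genes called higher, Mars, Tars2 and Aars2 were searched and held no match. Vars, Wars, Lars, Hars2 and Pars2 had no RefSeq promoter here, so they were not searched. A match is a description of these letters and says nothing of binding in P19 cells.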

How the data were processed

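Reads were aligned with TopHat2 and levels estimated with Cufflinks on mm10, per the submitters' processing notes. Versions and annotation are not given in the sources here. The authors deposited 1 FPKM value per gene and condition, with confidence limits of unstated level and a status field. How the 2 cultures of a condition relate to that 1 value is not given. Column names give the arm and time of each condition.

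All values were log2(FPKM + 1), and 11452 genes passed a minimum mean of 1 FPKM. R 4.3.3 with limma 3.58.1 (eBayes without trend, Benjamini-Hochberg over all tested genes, threshold 0.05, two-sided) gave 3 fits over the 8 conditions. The expression difference used time as a factor plus arm (3 residual degrees of freedom). An arm-by-hours term gave the decay rate difference (2), and the decay rate in both arms used arm plus hours (5). The fits were tested on simulated data. Depth is unknown, so no counting interval is given. Python 3.11.15 read the table. Gene models are GENCODE vM21 on GRCm38 and promoters RefSeq on GRCm38.p6. The promoters of Cars, Hars, Lars, Nars, Rars, Vars, Wars, Hars2 and Pars2 were not used here.

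The members and lists were chosen with earlier results of these data known. Values at each time are given for the 8 called members with the largest difference and the 3 with the largest moderated t for the decay rate difference. Slopes are given for the 4 fastest and 4 slowest, and up to 4 genes per related list were taken by moderated t. Dtd2, Ptrhd1, Gatb and Map2 were matched through older symbols, Aldh1l2 and Nupr1 fell under the minimum level, and Hbb-bt was not matched. Alternatives were the pseudocount (0.1 or 5), the filter (none, or a mean FPKM of 5 or more), median-of-ratios, quantile and ribosomal protein scaling (77 genes), eBayes with trend and robust together, and each time left out.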

Additional observations from a re-analysis of the deposited data

How the results depend on the processing

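For the expression difference, 9 synthetases were called higher and 2 lower. Scaled to ribosomal protein genes the counts were 17 higher and 0 lower, and after quantile normalization 8 and 7. The count called lower was also 0 with no filter, 1 with a mean FPKM of 5 or more, 1 without 0 min, 0 without 15 min and 0 without 225 min. Leaving out each time gave 6 to 9 called higher and 0 to 2 lower. Tars2, Aars2, Vars, Wars and Lars were called higher under all 12 alternatives, and Hars2 under the 11 that tested it. The decay rate difference had 0 synthetases called in either direction under all 12. For the decay rate in both arms, 27 slopes were positive and 8 negative. Scaled to ribosomal protein genes the counts were 0 and 34, and the slopes of Kars, Wars and Vars reversed to -0.066, -0.068 and -0.077. After quantile normalization 12 were positive, and the slope of Fars2 reversed to 0.040 (limma adjusted p = 0.16). The negative count was 4 with a mean FPKM of 5 or more, which tests fewer of the genes. Leaving out each time gave 20 to 27 positive and 3 to 8 negative; without 15 min there were 5 negative and without 225 min 3. The 20 cytosolic slopes were above the median of all genes under 11 of 12 alternatives, quantile normalization being the exception with 5. The Upf3a difference was -1.58 with a pseudocount of 0.1. The causes of these shifts were not tested. With 1 value per condition and unknown depth, the spread between cultures was not measured.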
